A study of Mus musculus with 11 samples.

Results

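The 10 genes described here encode the interleukin 7 (IL-7) receptor and the JAK-STAT5 cascade behind it: Il7r, Il2rg, Jak1, Jak3, Stat5a, Stat5b, Socs1, Socs3, Cish and Pim1. They were listed by name for their place in this pathway, with no rule on their levels but with earlier results of these data known, and are 10 of the 54418 genes in the count table. Thymocytes are the developing T cells of the thymus, and their RNA was sequenced from 4 wt mice, 4 Zmat3-/- mice and 3 Puma-/-p21-/-Zmat3-/- (TKO) mice that were 8 to 12 weeks old. All mice were on a C57BL/6-WEHI background, both mutant groups lack Zmat3, and the TKO mice also lack Puma and p21. The deletions are carried in all tissues of the mice and not only in thymocytes, and the labels do not give the sex of the mice. ZMAT3 (an RNA-binding protein), PUMA (an inducer of apoptosis) and p21 (an inhibitor of the cell cycle) are encoded by target genes of the tumour suppressor TRP53, and the comparisons ask whether their loss goes with altered transcript levels in thymocytes of young adult mice.

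IL-7 is made by stromal cells of the thymus and keeps early thymocytes alive and dividing. Its receptor pairs a specific chain, encoded by Il7r, with the common gamma chain, encoded by Il2rg, which is shared with the receptors for IL-2, IL-4, IL-9, IL-15 and IL-21. The Janus kinases JAK1 and JAK3 sit on these chains and phosphorylate the transcription factors STAT5A and STAT5B, which then enter the nucleus and induce, among other genes, the feedback inhibitors Cish, Socs1 and Socs3 and the survival kinase Pim1. Thymocytes carry the receptor at the earliest stage without CD4 and CD8, largely lose it while they carry both, and regain it as mature cells with one of them. RNA levels do not show whether the receptor was engaged or STAT5 was phosphorylated.

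Total counts ranged from 17669715 to 80207003 per mouse. Levels are given as counts scaled to library size (CPM), and every member had at least 118 counts in every mouse. Zmat3 was at 9.81, 12.1, 27.2 and 27.4 CPM in wt mice 1 to 4, at 5.33 to 6.91 CPM in Zmat3-/- and at 7.51 to 8.12 CPM in TKO mice, so that every mutant mouse was below every wt mouse. Bbc3, which encodes PUMA, was at 11.9 to 15.8 CPM in TKO and at 15.3 to 19.99 CPM in wt and Zmat3-/- mice, and Cdkn1a, which encodes p21, at 2.26 to 3.55 CPM in TKO against 3.58 to 10.2 CPM in wt and Zmat3-/- mice. Markers of thymocytes with both CD4 and CD8 summed to 9353 to 13970 CPM over 11 genes, led by Rag1, and the 8 markers of the earliest thymocytes summed to 118 to 159 CPM. None of the 11 and none of the 8 was at 0 counts in any mouse, and the same held for the 11 markers of mature thymocytes (1031 to 1251 CPM). B cell markers summed to 708 to 1353 CPM over 8 genes, myeloid markers to 155 to 421 CPM over 12 and stromal markers to 160 to 257 CPM over 10, with Elane as the only one of these at 0 in some mouse. Red blood cell markers spread from 867 to 8696 CPM over 7 genes (Slc4a1 was at 0 in some mouse), and 10 markers of innate-like, NK or regulatory T cells summed to 179 to 222 CPM, with Ncr1 at 0 in some mouse. In whole thymocyte suspensions, fewer cells of a type and less RNA per cell cannot be told apart.

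The wt libraries were not alike. Across 12957 genes tested in all comparisons, which are not independent replicates, log2 CPM of wt mice 1 and 2 correlated at 0.983 and that of wt mice 3 and 4 at 0.984, whereas the lowest r within wt was 0.889, against 0.986 in Zmat3-/- and 0.972 in TKO mice. Genes with short and long transcripts were shifted in opposite directions. Among genes with the shortest exon lengths (up to 2621 bases) the median deviation from the mean of all 11 mice was 0.51 and 0.36 on the log2 scale in wt mice 1 and 2 and −0.19 and −0.22 in wt mice 3 and 4. For the longest genes (6596 bases and more) it was −0.47, −0.34, 0.17 and 0.15 in the same order. The 7 mutant mice lay between −0.13 and 0.0030 for short and between 0.01 and 0.18 for long genes. Wt mice 1 and 2 also had lower sums of the CD4 and CD8 double-positive markers (9353 and 10360 CPM, against 13840 and 12860 CPM in wt mice 3 and 4) and higher sums of B cell markers (1246 and 1353 CPM, against 724 and 759 CPM). Sums for the earliest (159 and 139, against 126 and 120 CPM) and mature thymocytes (1205 and 1251, against 1068 and 1031 CPM) were higher as well. So were myeloid sums (345 and 370, against 216 and 199 CPM). Lower sums were found for red blood cells (1072 and 867, against 8696 and 2223 CPM) and innate-like, NK or regulatory T cells (179 and 199, against 214 and 217 CPM). The X-linked transcript Xist, found in female cells, was at 501 and 611 CPM in wt mice 1 and 2 and at 1098 to 1498 CPM in 3 of the mutant mice (Zmat3-/- mice 1 and 2, TKO mouse 1). The remaining 6 mice had 0.734 to 2.60 CPM. Each comparison with wt mice is therefore given with all 4 wt mice and again without each of these pairs. Fits with an offset for exon length, which called 2.28% of all genes in Zmat3-/- against wt and 0.581% in TKO against wt mice, called no member. Nor did fits with the Xist level as a covariate, which called 177 of 13494 genes in Zmat3-/- against wt mice. The part of the marker sums in the results was not tested.

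**Figure D1:**
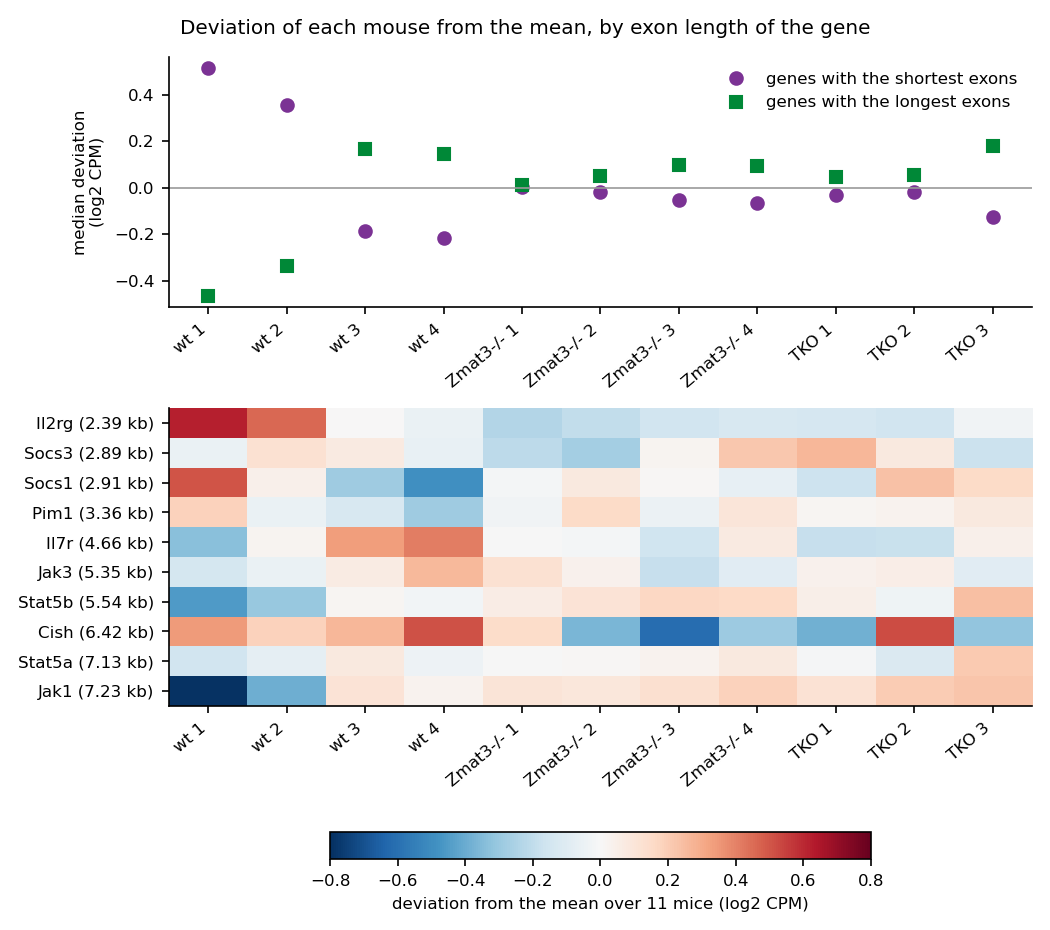
Top, the median deviation of each mouse from the mean over 11 mice (log2 CPM) for genes with the shortest (up to 2621 bases) and the longest exon lengths (6596 bases and more). Bottom, the same deviation for each of the 10 members, ordered by exon length in kb. Wt mice 1 and 2 stand apart in the top panel, and in the bottom panel for Il2rg (2.39 kb, highest), Jak1 (7.23 kb, lowest) and Stat5b (lowest). For the other 7 members at least 1 of these mice lies among the rest.

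None of the 10 members was called different between genotypes by edgeR's quasi-likelihood test, at an adjusted p under 0.05, in any of the 3 comparisons. All 10 passed the filter on low counts in each. Between Zmat3-/- and wt mice, 103 of 13494 tested genes were called (0.763%), between TKO and wt mice 39 of 13260 (0.294%), and between TKO and Zmat3-/- mice 29 of 13124 (0.221%). With the replicate number as a block, 12, 16 and 21 genes were called in the same order and none was a member. DESeq2, which called 8.04%, 2.87% and 0.556% of all genes, called no member either. Without adjustment, 3 members had p under 0.05 in Zmat3-/- against wt mice, namely Cish, Il2rg and Stat5b, against 16.1% of all genes tested. No member did in TKO against wt mice (10.3% of all genes) or in TKO against Zmat3-/- mice (4.5%). The median log2 fold change (log2FC) of the members was −0.03, 0.05 and 0.02 in the 3 comparisons, and that of all genes tested was −0.03, −0.04 and −0.0083. Both mutant groups were compared with the same 4 wt mice, so their results against wt are not independent of each other.

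**Figure D2:**
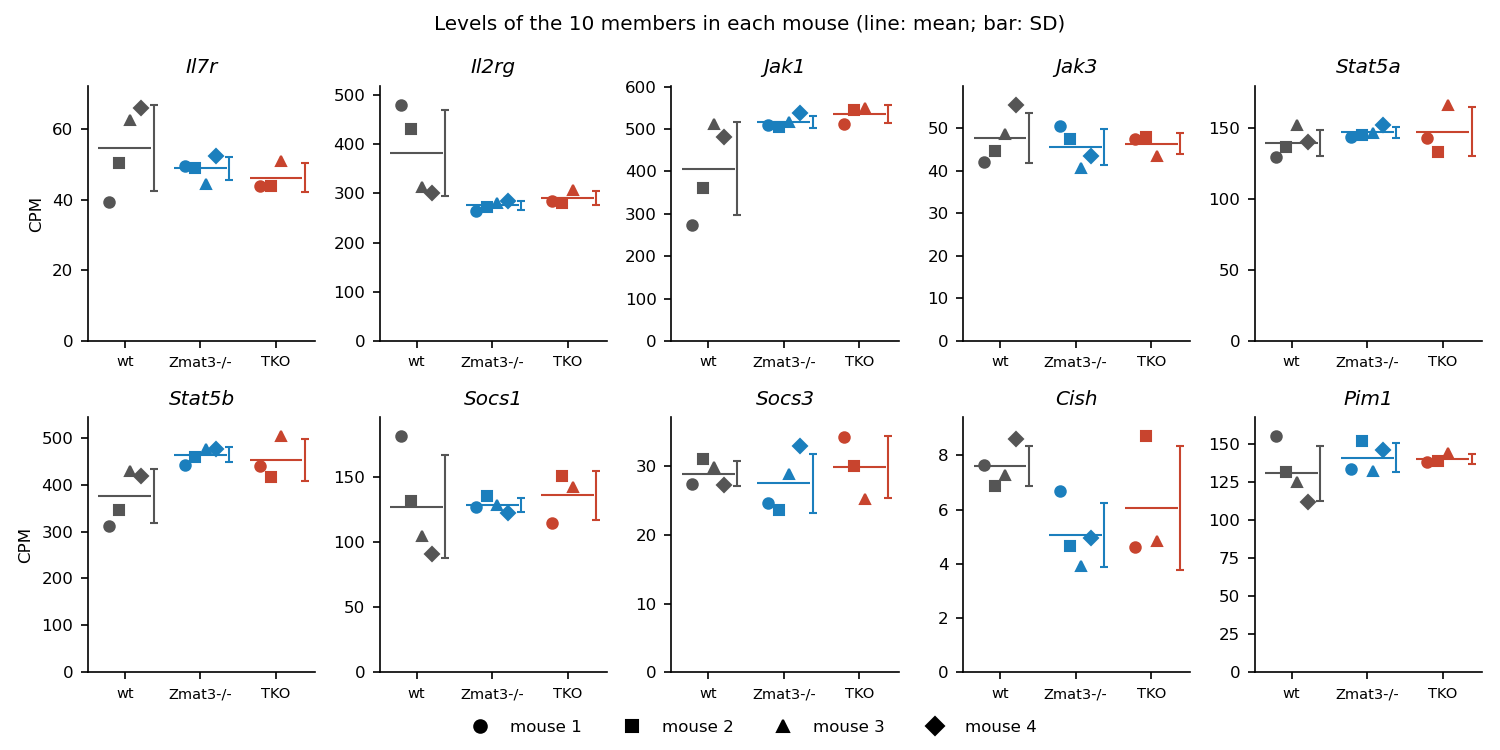
CPM of each member in every mouse, by genotype, on axes that start at 0. Symbols mark the mouse number, lines the group mean and bars the SD (n = 4 wt, 4 Zmat3-/- and 3 TKO mice). The wt points spread most for Il2rg, Jak1, Socs1 and Il7r.

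**Figure D3:**
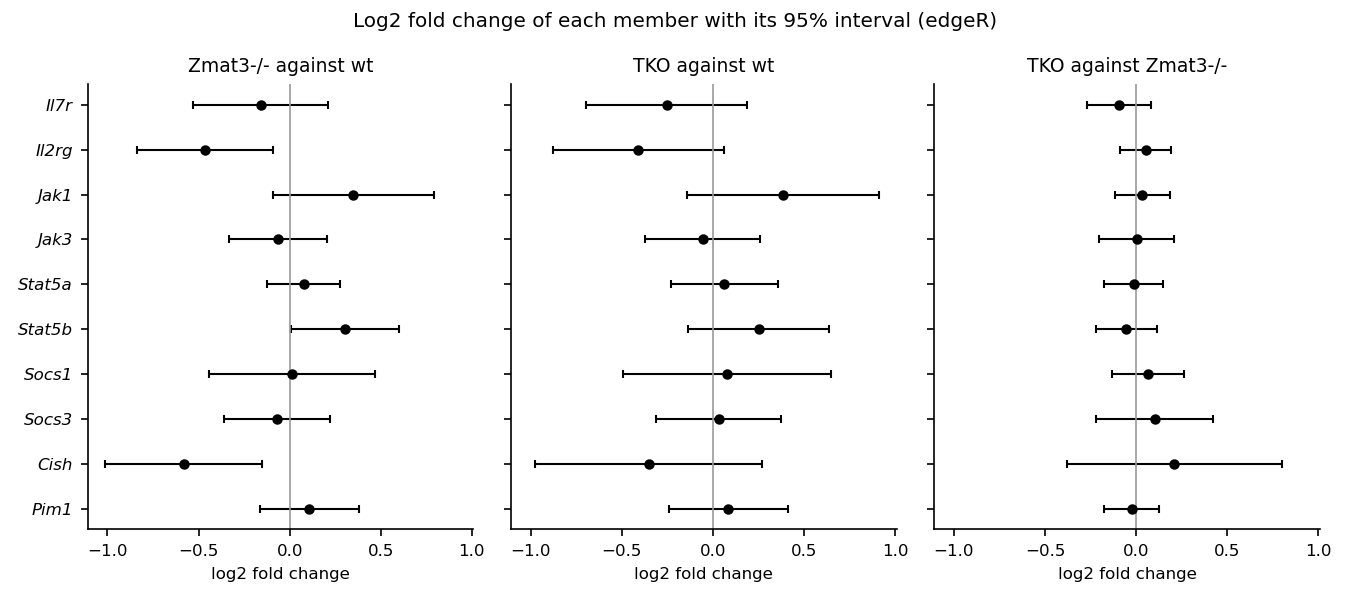
Log2 fold change of each member (points) with its 95% interval (bars) in the 3 comparisons, from edgeR. The intervals between TKO and Zmat3-/- mice all include 0, and Cish has the widest of them, from −0.38 to 0.80.

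Of the receptor chains, Il7r (ENSMUSG00000003882.5, chromosome 15 of GRCm38, 9505788 to 9530176, minus strand) was at 39.4, 50.4, 62.7 and 66.2 CPM in wt mice 1 to 4, at 49.5, 49.1, 44.6 and 52.3 CPM in Zmat3-/- mice 1 to 4 and at 43.8, 44.0 and 51.1 CPM in TKO mice 1 to 3. All 7 mutant mice lay inside the wt range, above wt mouse 1 and below wt mice 3 and 4. The mean was 54.7 ± 12.2 CPM in wt (SD, n = 4), 48.9 ± 3.21 in Zmat3-/- (SD, n = 4) and 46.3 ± 4.16 in TKO thymocytes (SD, n = 3). Relative to wt mice the log2FC was −0.16 in Zmat3-/- mice (95% interval −0.53 to 0.21, adjusted p = 0.645 from edgeR) and −0.25 in TKO mice (−0.70 to 0.19, adjusted p = 0.643). Which wt mice were used decided the direction. Without wt mice 1 and 2 it was −0.40 and −0.49 (adjusted p = 0.00309 and 0.0267), and without wt mice 3 and 4 it was 0.11 and 0.03 (adjusted p = 0.410 and 0.876).

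Il2rg (ENSMUSG00000031304.18, chromosome X, 101264378 to 101268255, minus strand) was the most abundant member per length. Its wt mice 1 to 4 had 479.8, 429.8, 314 and 302 CPM, the Zmat3-/- mice 265, 273, 281 and 285 CPM and the TKO mice 284, 280.3 and 306 CPM. Every Zmat3-/- mouse was below every wt mouse, whereas TKO mouse 3 was above wt mouse 4. The mean fell short of the wt mean of 381 ± 87.5 CPM (SD, n = 4) in Zmat3-/- (276 ± 9.03, SD, n = 4) and in TKO mice (290.2 ± 13.8, SD, n = 3), but neither difference passed the test. The log2FC was −0.46 (standard error 0.164, 95% interval −0.84 to −0.09, adjusted p = 0.222 from edgeR) and −0.41 (standard error 0.202, −0.88 to 0.06, adjusted p = 0.529). Its size rested on wt mice 1 and 2. Without them the log2FC was −0.16 and −0.10 (adjusted p = 0.0529 and 0.462), and without wt mice 3 and 4 it was −0.73 and −0.66 (adjusted p = 0.000114 and 0.00284). Il2rg has the shortest exons of the 10 members, at 2.39 kb, and with an offset for exon length its log2FC was −0.30 and −0.21 (adjusted p = 0.0699 and 0.417). Of its 31-base words, 28.7% are also in Gm20489, which overlaps it on the same strand. Gm20489 was at 0 CPM in every mouse, so no reads were assigned to it.

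The ligand was scarce. Il7 had 8 to 151 counts per mouse, and its level was 3.501, 3.69, 0.337 and 0.944 CPM in wt mice 1 to 4, 2.56 to 3.09 CPM in Zmat3-/- and 1.26 to 2.62 CPM in TKO mice. Wt mice 3 and 4 were the lowest of all 11. The sum of the 10 stromal markers was also lower in wt mice 3 and 4 (160 and 173 CPM) than in wt mice 1 and 2 (257 and 238 CPM), and its part in the Il7 level was not tested. Il2ra, the alpha chain of the IL-2 receptor and a marker of early thymocytes, was at 35.2 to 45.8 CPM in wt, 38.7 to 43.8 CPM in Zmat3-/- and 29.1 to 41.9 CPM in TKO mice, and these ranges overlapped.

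Of the kinases, Jak1 (ENSMUSG00000028530.14, chromosome 4, 101152367 to 101265282, minus strand), which binds the Il7r chain, was at 273, 360.1, 511 and 482 CPM in wt mice 1 to 4. The Zmat3-/- mice had 509, 504, 517 and 537 CPM and the TKO mice 512, 546 and 551 CPM. All 3 TKO mice were above every wt mouse, by as little as 512 against 511 CPM, and the Zmat3-/- range overlapped that of wt mice. Ranges did not overlap for 13.8% of all genes tested between TKO and wt mice. Relative to wt mice, Jak1 had a log2FC of 0.35 in Zmat3-/- mice (standard error 0.194, 95% interval −0.09 to 0.79, adjusted p = 0.415 from edgeR) and of 0.39 in TKO mice (standard error 0.227, −0.14 to 0.91, adjusted p = 0.589). Without wt mice 1 and 2 it shrank to 0.06 and 0.10 (adjusted p = 0.503 and 0.479), and without wt mice 3 and 4 it was 0.70 and 0.75 (adjusted p = 0.000748 and 0.00439). Jak1 has the longest exons of the members (7.23 kb).

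Jak3 (ENSMUSG00000031805.17, chromosome 8, 71676296 to 71690575, plus strand), which binds the common gamma chain, had a lower level per length than Jak1. It was at 42.1, 44.7, 48.6 and 55.5 CPM in wt, 50.5, 47.5, 40.8 and 43.5 CPM in Zmat3-/- and 47.5, 48.1 and 43.5 CPM in TKO mice. The genotypes overlapped throughout, and the log2FC was −0.06 against wt mice in both mutants (95% intervals −0.33 to 0.20 and −0.37 to 0.26, adjusted p = 0.802 and 0.877 from edgeR). No alternative called Jak3 in any comparison. Of its 31-base words, 6.93% are also found in transcripts of Insl3, which overlaps it on the same strand, so a small share of its reads could be counted for either gene.

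Stat5b (ENSMUSG00000020919.11, chromosome 11, 100780731 to 100850724, minus strand) was at 311, 345, 429.8 and 419 CPM in wt mice 1 to 4. Higher values of 443, 459, 476 and 475 CPM were found in Zmat3-/- mice 1 to 4, and TKO mice 1 to 3 had 439, 415 and 503 CPM. Every Zmat3-/- mouse was above every wt mouse, and the TKO range overlapped that of wt mice. The means were 376 ± 57.7 (wt, SD, n = 4), 463 ± 15.8 (Zmat3-/-, SD, n = 4) and 452 ± 45.1 CPM (TKO, SD, n = 3). The log2FC of 0.30 in Zmat3-/- mice did not pass the test (standard error 0.130, 95% interval 0.0051 to 0.60, adjusted p = 0.304 from edgeR), nor did that of 0.25 in TKO mice (standard error 0.167, −0.14 to 0.64, adjusted p = 0.613). Here too wt mice 1 and 2 set the size, since without them the values were 0.12 and 0.08 (adjusted p = 0.134 and 0.627) and without wt mice 3 and 4 they were 0.49 and 0.45 (adjusted p = 0.000866 and 0.0226).

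Stat5a (ENSMUSG00000004043.14, chromosome 11, 100859351 to 100885169, plus strand), the neighbour of Stat5b, was one of the steadiest members within wt and Zmat3-/- mice. Its SD was 6.7% and 2.62% of the mean there, but 11.7% in TKO mice. It was at 129.6, 137, 152 and 140.2 CPM in wt, 144, 146, 147 and 153 CPM in Zmat3-/- and 143, 133 and 167 CPM in TKO mice. Its log2FC against wt mice was 0.08 in Zmat3-/- (95% interval −0.12 to 0.27, adjusted p = 0.678 from edgeR) and 0.06 in TKO mice (−0.23 to 0.36, adjusted p = 0.848). The 2 STAT5 genes are close copies. Transcripts of Stat5b share 15.1% of their 31-base words with Stat5a, and 11.5% of those of Stat5a are shared with Stat5b, so the division of counts between them rests on the remainder. The spans of Stat5a and Stat3, on opposite strands, overlap by 72 bases.

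Among the feedback inhibitors, Cish had the lowest level and the lowest p. This gene (ENSMUSG00000032578.7, chromosome 9, 107296026 to 107302784, plus strand) encodes a SOCS-family protein that competes with STAT5 for the receptor and is a classical STAT5 target. It had 118 to 396 counts per mouse. Its level was 7.67, 6.87, 7.29 and 8.62 CPM in wt mice 1 to 4, 6.71, 4.68, 3.94 and 4.94 CPM in Zmat3-/- mice 1 to 4 and 4.62, 8.70 and 4.84 CPM in TKO mice 1 to 3. Every Zmat3-/- mouse was below every wt mouse, although Zmat3-/- mouse 1 came close to wt mouse 2, and TKO mouse 2 was the highest of all. The mean was 7.61 ± 0.745 CPM in wt (SD, n = 4), 5.07 ± 1.17 in Zmat3-/- (SD, n = 4) and 6.06 ± 2.30 in TKO mice (SD, n = 3). Between Zmat3-/- and wt mice, Cish had a log2FC of −0.58 (standard error 0.189, 95% interval −1.01 to −0.15, adjusted p = 0.186 from edgeR). Unlike those of Il2rg, Jak1 and Stat5b, this value moved little with the wt mice used, to −0.64 without wt mice 1 and 2 (adjusted p = 0.0441) and −0.52 without wt mice 3 and 4 (adjusted p = 0.0647). Cish had a log2FC of −0.35 in TKO against wt mice (−0.97 to 0.27, adjusted p = 0.643), of −0.43 without wt mice 1 and 2 (adjusted p = 0.384) and of −0.30 without wt mice 3 and 4 (adjusted p = 0.457). It depended on single TKO mice, at −0.17 without TKO mouse 1, −0.70 without TKO mouse 2 and −0.20 without TKO mouse 3 (adjusted p = 0.878, 0.794 and 0.902). Cish shares 6.54% of its words with Gm17041, which overlaps it on the other strand and had next to no counts.

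In Zmat3-/- against wt mice, Cish, Il2rg and Stat5b were the members whose ranges did not overlap, 3 of 10, against 13.9% of all genes tested. Beside these results stands the sum of 24 immediate-early genes, which can respond within minutes to the handling of cells. It was at 2241, 1999, 1248 and 1247 CPM in wt mice 1 to 4, at 2564 to 3090 CPM in Zmat3-/- and at 2692 to 3045 CPM in TKO mice, so that every mutant mouse was above every wt mouse. This list holds Fos, Jun, Dusp1 and Klf4, which the paper named as different between TKO and wt thymocytes in these data. The paper listed them as regulators or targets of TRP53. Since the list was chosen with earlier results known, the separation of its sum is not an independent result. The sum of 12 heat shock genes was at 2753 to 4474 CPM in wt, 3994 to 5054 CPM in Zmat3-/- and 4078 to 5549 CPM in TKO mice. None of these genes was at 0 in any mouse, and the part of these genes' response in the levels of the members was not tested.

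Socs1 (ENSMUSG00000038037.5, chromosome 16, 10782240 to 10785536, minus strand) encodes an inhibitor that binds the Janus kinases. It was at 181, 132, 105 and 90.9 CPM in wt mice 1 to 4, at 127, 135, 129 and 122 CPM in Zmat3-/- and at 114, 151 and 142 CPM in TKO mice. Its wt values had the largest spread of all members (SD 31.3% of the mean, against 4.19% in Zmat3-/- mice), and they enclosed every mutant value. The log2FC was 0.01 in Zmat3-/- (95% interval −0.44 to 0.47, adjusted p = 0.978 from edgeR) and 0.08 in TKO mice (−0.50 to 0.65, adjusted p = 0.911). Its sign followed the choice of wt mice, at 0.39 and 0.46 without wt mice 1 and 2 (adjusted p = 0.00257 and 0.0638) and −0.30 and −0.22 without wt mice 3 and 4 (adjusted p = 0.0513 and 0.312).

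Socs3 (ENSMUSG00000053113.3, chromosome 11, 117966079 to 117970047, minus strand), the inhibitor best known from signalling by cytokines of the IL-6 family, was at 27.4, 31.1, 29.9 and 27.3 CPM in wt, 24.6, 23.6, 28.9 and 33.0 CPM in Zmat3-/- and 34.2, 30.1 and 25.2 CPM in TKO mice. The spread was larger within each mutant group than among the wt mice. The log2FC against wt mice was −0.07 (95% interval −0.36 to 0.22, adjusted p = 0.798 from edgeR) and 0.03 (−0.31 to 0.37, adjusted p = 0.940), and no alternative called it.

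Pim1 (ENSMUSG00000024014.8, chromosome 17, 29490753 to 29496112, plus strand) encodes a serine/threonine kinase that promotes survival and is induced by STAT5. It was at 155, 132, 125 and 112 CPM in wt mice 1 to 4, at 134, 152, 132 and 146 CPM in Zmat3-/- and at 138, 139 and 144 CPM in TKO mice. Its log2FC against wt mice was 0.11 in Zmat3-/- (95% interval −0.16 to 0.38, adjusted p = 0.665 from edgeR) and 0.09 in TKO mice (−0.24 to 0.41, adjusted p = 0.815). Without wt mice 1 and 2 it was 0.25 and 0.23 (adjusted p = 0.0249 and 0.110), and without wt mice 3 and 4 −0.04 and −0.05 (adjusted p = 0.756 and 0.772). Pim1 lies 390.0 kb from the deleted Cdkn1a gene, so a difference in DNA next to the altered p21 allele and the deletion itself cannot be told apart at this gene. Within 500 kb on either side of Pim1, none of 16 other genes tested between TKO and Zmat3-/- mice was called by edgeR (0.221% of all genes), 4 had an unadjusted p under 0.05 (4.5% of all genes), and 5 had ranges that did not overlap (2 higher, and 3 lower including Cdkn1a itself), against 5.62% of all genes. In TKO against wt mice none of 16 was called (0.294% of all genes), 5 had an unadjusted p under 0.05 (10.3% of all genes), and 6 had ranges that did not overlap (2 higher, and 4 lower including Cdkn1a), against 13.8% of all genes. Between TKO and Zmat3-/- mice the log2FC of Pim1 itself was −0.02 (−0.17 to 0.13, adjusted p = 0.985). Of its 31-base words, 11.1% are shared with Gm26885, which overlaps it on the other strand at a mean of 2.36 CPM. Gm26885 had a log2FC of 2.5 in Zmat3-/- (95% interval 1.86 to 3.15, adjusted p = 0.00979 from edgeR) and of 2.18 in TKO against wt mice (1.265 to 3.102, adjusted p = 0.109), and without strand in the libraries the reads of this pair cannot be told apart where they overlap.

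Between TKO and Zmat3-/- mice, the pair that differs in Puma and p21 and does not use the wt mice, the 10 members were close together. The log2FC ran from −0.10 for Il7r to 0.21 for Cish, no ranges were separate (5.62% of all genes tested had separate ranges), and adjusted p-values from edgeR were 0.983 or higher. The value of Cish rested on TKO mouse 2, without which it was −0.12, and it was between 0.11 and 0.39 without any other mouse. That of Il7r ran from −0.15 to −0.05 with 1 mouse left out. The 95% interval of the log2FC was from −0.09 to 0.19 for Il2rg, from −0.12 to 0.18 for Jak1, from −0.22 to 0.12 for Stat5b, from −0.18 to 0.15 for Stat5a and from −0.27 to 0.08 for Il7r. It was from −0.13 to 0.26 for Socs1 and from −0.20 to 0.21 for Jak3, and it was widest for Socs3 (−0.22 to 0.42) and Cish (−0.38 to 0.80). Over the members, the median interval reached 0.17 on either side of the estimate here, against 0.33 in Zmat3-/- against wt and 0.41 in TKO against wt mice.

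**Figure D4:**
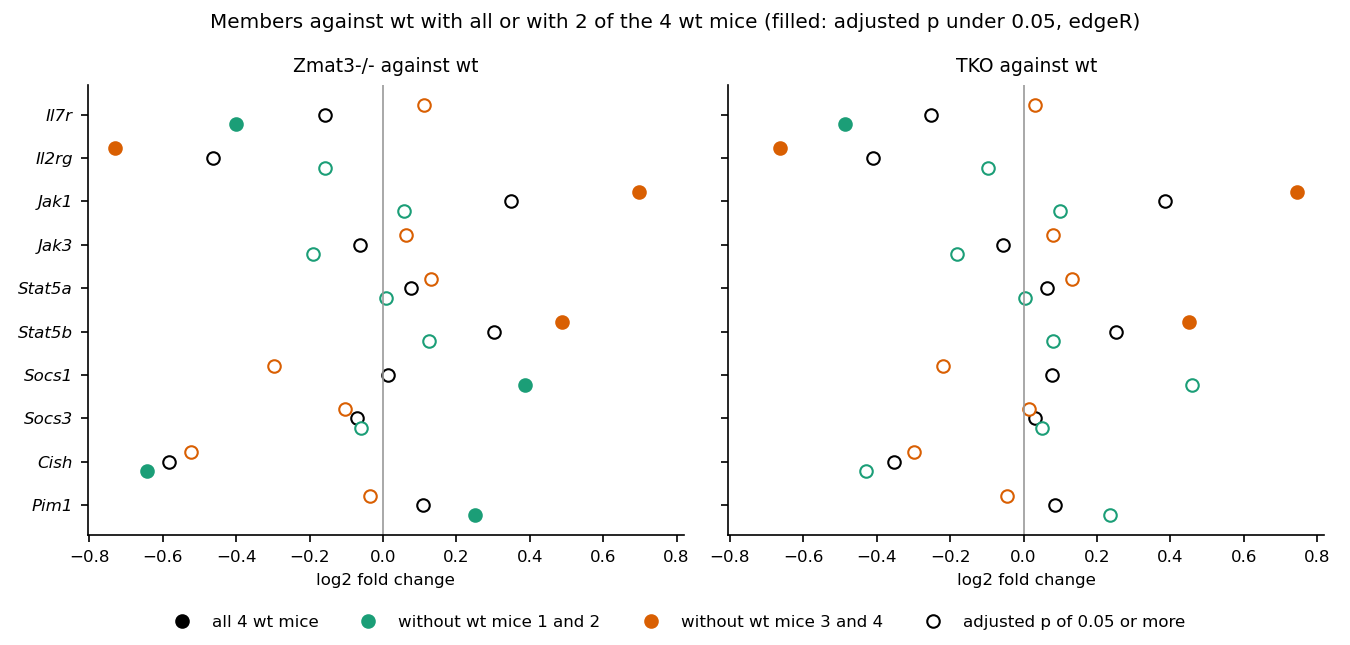
Log2 fold change of each member against wt mice, with all 4 wt mice, without wt mice 1 and 2, and without wt mice 3 and 4; filled points have an adjusted p under 0.05 by edgeR. Il2rg, Jak1 and Stat5b are filled only without wt mice 3 and 4. Without wt mice 1 and 2, Il7r, Socs1, Cish and Pim1 are filled in Zmat3-/- and Il7r in TKO mice.

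The calls made with 2 of the 4 wt mice have to be read against the whole table. Without wt mice 1 and 2, 4 members were called in Zmat3-/- against wt mice (Il7r and Cish lower, Socs1 and Pim1 higher), where 33% of all genes were called, and 1 in TKO against wt mice (Il7r, lower), where 8.15% were. Without wt mice 3 and 4, 3 members were called in each (Il2rg lower, Jak1 and Stat5b higher), where 56.1% and 43.6% of all genes were. A fit with 1 surrogate variable, a pattern across libraries that is estimated from the counts, called 4 members in Zmat3-/- mice (Il2rg and Cish lower, Jak1 and Stat5b higher) beside 37.7% of all genes, and 3 in TKO mice (Il7r and Il2rg lower, Jak1 higher) beside 14%. No member was called both without wt mice 1 and 2 and without wt mice 3 and 4.

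Per length, the order of the members was much the same in the 3 genotypes. In wt thymocytes Il2rg was first (160 ± 36.7 CPM per kb of exon, SD, n = 4), followed by Stat5b (67.9 ± 10.4), Jak1 (56.2 ± 15.3), Socs1 (43.7 ± 13.7), Pim1 (39.0 ± 5.38), Stat5a (19.6 ± 1.31), Il7r (11.7 ± 2.63), Socs3 (10.01 ± 0.643), Jak3 (8.92 ± 1.09) and Cish (1.19 ± 0.116). The values of neighbours overlapped from Stat5b to Jak1, Socs1 and Pim1 and from Il7r to Socs3 and Jak3, whereas Il2rg, Stat5a and Cish were apart from their neighbours. In Zmat3-/- mice Stat5b (83.6 ± 2.85, SD, n = 4) and Jak1 (71.5 ± 2.03) no longer overlapped, nor did Jak1 and Socs1 (44.0 ± 1.85). In TKO mice the only change of rank was that Socs3 (10.3 ± 1.56, SD, n = 3) was above Il7r (9.93 ± 0.892), with overlapping values.

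The start regions of the members were searched for the palindrome TTCNNNGAA, the core of the sequence that STAT5 dimers bind. Of the 10 members, all with a RefSeq entry on GRCm38.p6, 2 held it in the 250 bases before a start, Il7r and Socs3. Of all 27025 genes with such a window, 8.13% held it in at least 1 window. Both sites are shown because they are the only matches, with the palindrome in capitals, 5′ to 3′ on the strand of the gene. The RefSeq starts used here lie inside the gene spans given above from GENCODE, 300 bases (Il7r) and 681 bases (Socs3) after the GENCODE start. The stretch shown for Il7r lies at chr15:9530000-9530028 (minus strand), with the palindrome ending 133 bases before the RefSeq start at 9529876. For Socs3 it lies at chr11:117969502-117969530 (minus strand), with the palindrome ending 145 bases before the RefSeq start at 117969366. In GENCODE each of these stretches is in an intron of the 1 annotated transcript that reaches over it.
Il7r: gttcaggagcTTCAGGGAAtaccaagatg
Socs3: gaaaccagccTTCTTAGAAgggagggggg
The reverse complement of the motif is the motif itself, so both strands were covered. A match is a description of these letters and does not show binding, and the windows of the STAT5 targets Cish, Socs1 and Pim1 did not hold these letters. The window of Cish (chr9:107296409-107296658, plus strand) lies inside its GENCODE span, which starts at 107296026. The bases before that GENCODE start were not searched, so the result for Cish covers this window only.

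The other genes of the pathway, 61 in 5 lists, gave no call by edgeR in any comparison. Of 57 tested between Zmat3-/- and wt mice, 12 had an unadjusted p under 0.05 (16.1% of all genes did) and 12 had ranges that did not overlap (13.9% of all genes), 10 higher and 2 lower. Between TKO and wt mice these numbers were 9 and 11 of 57 (10.3% and 13.8% of all genes), and in TKO against Zmat3-/- mice 0 and 2 of 56 (4.5% and 5.62%). DESeq2 called 4 of them in Zmat3-/- against wt mice (8.04% of all genes), namely Pim3, Foxo1, Foxo3 and Tsc22d3, the latter 3 in TKO against wt mice (2.87%) and none in TKO against Zmat3-/- mice (0.556%). The median log2FC of the lists against wt mice was 0.15 in both mutants for the other Janus kinases and STATs (7 genes), 0.16 in both for other negative regulators such as further SOCS proteins, PIAS proteins and phosphatases (17 genes), and −0.04 and −0.05 for other STAT5 target and survival genes (12 genes). For the cytokines and other receptors it was −0.05 and −0.10, with 10 of 14 tested.

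The list with the highest median was that of 11 genes tied to Il7r transcription (0.29 in Zmat3-/- and 0.36 in TKO against wt mice, beside −0.03 and −0.04 for all genes), and 10 of the 11 had a log2FC above 0 in each. Most encode transcription factors, but the list also holds Tsc22d3 and Klf2, which are known as targets of the glucocorticoid receptor and of FOXO1 and not as regulators of Il7r, and Tsc22d3 had the largest log2FC of the list in both. Foxo1, Foxo3, Foxp1, Ets1, Runx1 and Nr3c1 have exon lengths of 7.57 to 13.75 kb. They belong to the longest genes (6596 bases and more), which as a class deviated by −0.47 and −0.34 in wt mice 1 and 2. Gfi1, Gabpa, Runx3, Tsc22d3 and Klf2 are shorter. The part of exon length in the list median was not tested. Among the 11, Foxo1, whose product is required for Il7r transcription in T cells, its relative Foxo3, and Tsc22d3 were named here after their values were seen. Foxo1 was at 59.6, 64.6, 61.4 and 68.8 CPM in wt mice 1 to 4, at 72.9 to 86.6 CPM in Zmat3-/- and at 77.1 to 89.3 CPM in TKO mice. Foxo3 was at 91.7, 92.0, 110.4 and 97.7 CPM in wt, at 122 to 128 CPM in Zmat3-/- and at 120.0 to 152 CPM in TKO mice. Tsc22d3 was at 84.0, 83.5, 65.1 and 69.8 CPM in wt, at 95.4 to 134 CPM in Zmat3-/- and at 99.5 to 151 CPM in TKO mice. For these 3 genes, the only ones of the 11 with separate ranges in either comparison with wt mice, every mutant mouse was above every wt mouse, where 13.9% and 13.8% of all genes had separate ranges. Between Zmat3-/- and wt mice, log2FC values were 0.32 for Foxo1 (95% interval 0.10 to 0.53, adjusted p = 0.152 from edgeR), 0.35 for Foxo3 (0.14 to 0.55, adjusted p = 0.123) and 0.54 for Tsc22d3 (0.22 to 0.86, adjusted p = 0.119). Those in TKO against wt mice were 0.37, 0.46 and 0.67 (adjusted p = 0.362, 0.336 and 0.2998). In Zmat3-/- against wt mice all 3 were called, higher, without wt mice 1 and 2 (where 33% of all genes were called) and also without wt mice 3 and 4 (56.1%). In TKO against wt mice Tsc22d3 was the only one of the 3 called without wt mice 1 and 2 (8.15% of all genes), and all 3 were called without wt mice 3 and 4 (43.6%). DESeq2 called all 3, higher, in both comparisons. Other genes in the list turned with the wt mice used. Runx1 and Nr3c1 were called lower in Zmat3-/- mice without wt mice 1 and 2 and higher without wt mice 3 and 4, and Klf2 was called higher in TKO mice without wt mice 1 and 2 and lower without wt mice 3 and 4. The sums of immediate-early genes above were higher in every mutant mouse than in every wt mouse.

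**Figure D5:**
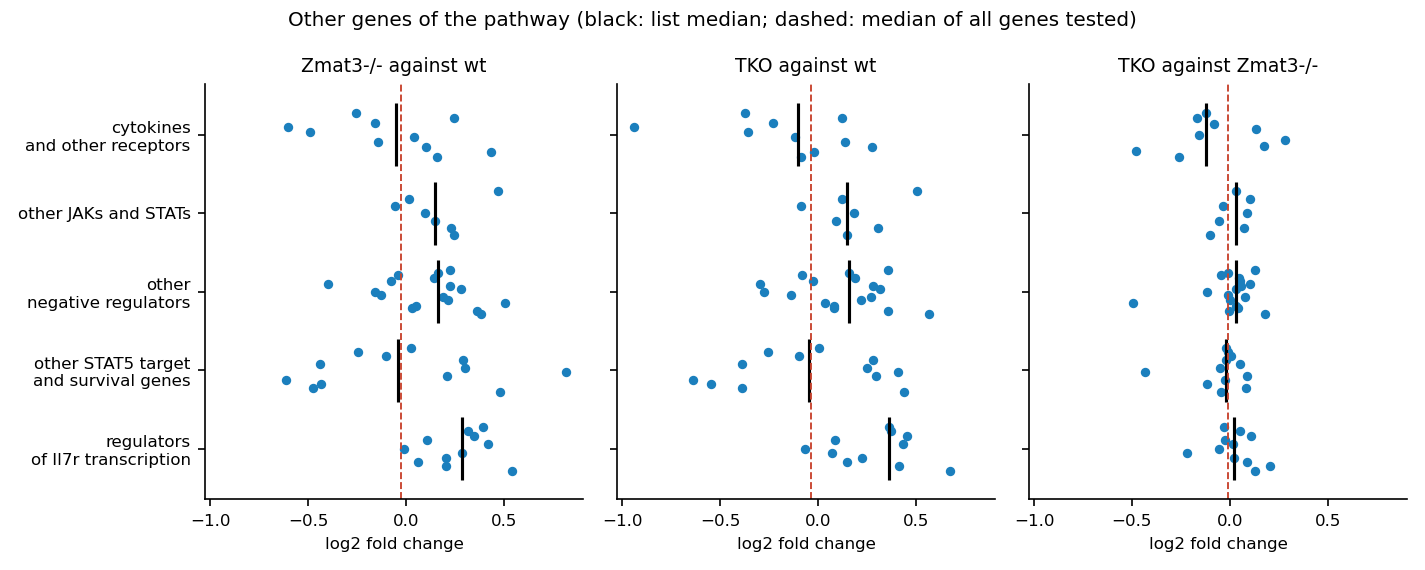
Log2 fold change of the other pathway genes tested, by list (points), with the list median (black) and the median of all genes tested (dashed). The genes tied to Il7r transcription (labelled regulators) have medians of 0.29 and 0.36 against wt mice and 0.02 between TKO and Zmat3-/- mice.

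The 3 genes whose log2 CPM followed that of Il7r most closely over the 11 mice, among 12956 others, were Ino80dos (r = 0.952), Gm47572 (r = 0.950) and Rnft1 (r = 0.931). Mean levels in wt, Zmat3-/- and TKO mice were 6.67, 5.70 and 5.58 CPM for Ino80dos and 27.0, 25.1 and 24.6 CPM for Rnft1. These values share libraries, and the difference between wt mice 1 and 2 and wt mice 3 and 4 enters each of them.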

How the data were processed

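The authors sequenced TruSeq v2 libraries of thymocyte RNA, a kit that does not mark strand, in paired ends, quantified the reads with Salmon in nf-core/rnaseq on GRCm38.p6 and deposited estimated counts per gene, which were whole numbers without normalization. Names, positions and exon lengths came from GENCODE M21, in which 54166 of 54418 genes had an entry. Labels gave the genotype of each sample.

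Each pair of genotypes was fitted on its own in edgeR 4.0.16 under R 4.3.3, with TMM scaling, the two-sided quasi-likelihood F-test and Benjamini-Hochberg adjustment over all genes tested. The filter asked for 20 counts at the depth of the smallest library, in a number of mice equal to the smaller group. Following the study, rRNA, Xist, Y-linked and non-coding immunoglobulin genes stayed out. A gene was called at an adjusted p under 0.05, and 43, 32 and 16 of the called genes also had an absolute log2FC above 1.5. Log2 CPM used a prior count of 2. DESeq2 1.42.0, 1 surrogate variable (sva 3.50.0), the Xist level and the other alternatives are given in the closing section. The study's own model used DESeq2 with sex, which the labels do not give, and surrogate variables, so the fit with 1 surrogate variable is the nearest to it in covariates. Same-numbered Zmat3-/- and wt mice deviated together (r = 0.337, 0.127, 0.257 and 0.301 over genes), so the replicate number was also fitted as a block, although neither labels nor methods describe pairs. Fits without wt mice 1 and 2 or 3 and 4 and with an exon length offset were added after the data were seen. The members, although listed by their role and not by level, and the lists were chosen with earlier results of these data known. Scripts were tested on simulated data.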

Additional observations from a re-analysis of the deposited data

How the results depend on the processing

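No member passed the threshold in the fits of any comparison except those with 1 surrogate variable or without 2 of the wt mice, and of 590 recomputed log2FC values 527 kept direction and side of the threshold, 18 gained a call and 45 changed sign. Members called in Zmat3-/- against wt mice numbered 4 with 1 surrogate variable, 4 without wt mice 1 and 2 and 3 without wt mice 3 and 4. In TKO against wt mice they numbered 3, 1 and 3. Other pathway genes called in Zmat3-/- against wt mice numbered 4 of 57 with DESeq2 (8.04% of all genes), 27 of 57 with 1 surrogate variable (37.7%), 1 of 57 with the length offset (2.28%), 20 of 57 without wt mice 1 and 2 (33%) and 38 of 58 without wt mice 3 and 4 (56.1%). In TKO against wt mice they numbered 3 of 57 with DESeq2 (2.87%), 13 of 57 with 1 surrogate variable (14%), 3 of 56 without wt mice 1 and 2 (8.15%) and 34 of 57 without wt mice 3 and 4 (43.6%). The cause was not tested. Calls over all genes ranged from 12 (replicate block) to 7968 (without wt mice 3 and 4), against 103, in Zmat3-/- against wt mice, from 16 to 5829, against 39, in TKO against wt mice and from 16 to 90, against 29, in TKO against Zmat3-/- mice. DESeq2 called 1085, 381 and 73.

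Of the log2FC values that changed sign, none was called with or without the change. In Zmat3-/- against wt mice these were Stat5a (−0.034 with the length offset, −0.030 with that offset and the replicate block), Socs3 (0.024 and 0.020), and without wt mice 3 and 4 Il7r (0.11), Jak3 (0.062), Socs1 (−0.30) and Pim1 (−0.036). Those of TKO against wt mice were Stat5a (−0.051 with the length offset, −0.10 with the offset and the block) and without wt mice 3 and 4 Il7r (0.031), Jak3 (0.080), Socs1 (−0.22) and Pim1 (−0.045). Between TKO and Zmat3-/- mice they were Stat5a (0.0042 without the filter on low counts), Jak3 (−0.00062 with the length offset, −0.018 with the offset and the block) and Pim1 (0.0051 with the offset and the block). With each mouse left out in turn, no member was called. Over these fits Jak3 ranged from −0.12 to 0.018 and Socs1 from −0.12 to 0.23 in Zmat3-/- against wt mice. Between TKO and wt mice Jak3 ranged from −0.11 to 0.026, Stat5a from −0.018 to 0.13, Socs1 from −0.052 to 0.30 and Socs3 from −0.061 to 0.15. Between TKO and Zmat3-/- mice Jak3 ranged from −0.041 to 0.071, Stat5a from −0.084 to 0.063, Stat5b from −0.11 to 0.012, Socs1 from −0.0093 to 0.16, Socs3 from −0.028 to 0.24, Cish from −0.12 to 0.39 and Pim1 from −0.048 to 0.015.

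The replicate block changed no call of a member. With it, Jak3 (0.026), Socs1 (−0.021) and Socs3 (−0.0043) changed sign in TKO against wt mice and Jak3 (−0.012) in TKO against Zmat3-/- mice. Same-numbered mice correlated at 0.073, 0.301 and 0.406 between TKO and wt and at 0.195, 0.011 and 0.173 between TKO and Zmat3-/- mice. The main fits treat the numbers as pairs in no comparison, and the block was fitted only as an alternative. Not every mouse correlated best with its own number. Cish, at 118 to 396 counts, had the widest intervals in the 2 comparisons with TKO mice, and Socs1 in Zmat3-/- against wt mice. Nothing says how the mice of a group were processed, so p-values measure the spread between these mice only.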
